A study of Mus musculus with 5 samples.

Results

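The 8 Hedgehog pathway genes examined here were Shh, Ptch1, Hhip, Smo, Sufu, Gli1, Gli2 and Gli3, taken by symbol from the 24100 genes of the count table. Their RNA was measured by sequencing mRNA libraries of pigment cells that had been sorted by flow cytometry out of mouse back skin, all from males on a mixed CD1/C57Bl6J background. Quiescent melanocyte stem cells (qMcSC), the resting reserve of the follicle's pigment lineage, gave 2 libraries, 1 at postnatal day 60 and 1 at day 62, in second telogen, the resting phase of the hair cycle. These mice carried the Dct-eGFP reporter, and each library pooled cells of 4 males. Melanocytes gave 3 libraries at day 10 in full anagen, the growth phase, from mice with Dct-EGFP and Lef1-RFP that were pooled from 3, 2 and 4 males. Both gates took reporter-positive cells of medium to low integrin α6 that lacked CD31, CD45, CD140a, Sca1 and CD34, and the melanocyte gate also required Lef1-RFP and c-Kit. The groups thus differed at once in cell stage, age, phase of the hair cycle, reporters and gate, and the parts of these cannot be told apart.

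Hedgehog signaling starts when a secreted ligand such as sonic hedgehog (Shh) binds the receptor Patched, which otherwise keeps Smoothened (Smo) inactive. Active Smo at the primary cilium releases the GLI transcription factors from their inhibitor Sufu, and GLI factors then switch on targets that include Gli1, Ptch1 and Hhip. In growing hair follicles Shh is made by epithelial matrix cells beside the pigment cells, and dermal papilla and epithelium both respond to it.

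All 8 genes were higher in melanocytes, with no overlap between the groups. The ligand gene Shh and the ligand-binding gene Hhip differed most, by 54.7-fold and 77.1-fold in the fitted model, and the 3 GLI genes by 5.13-fold to 6.79-fold. The receptor gene Ptch1 differed 3.59-fold, Smo 2.89-fold and the inhibitor gene Sufu 1.25-fold. Each passed an adjusted p of 0.05 in the quasi-likelihood test of edgeR over the 16953 genes tested, where 29.1% of genes were called higher in melanocytes and 55.4% in either direction. Over all tested genes the groups did not overlap for 74.5%, with the melanocyte libraries all higher for 38.1% and all lower for 36.4%. The median log2 fold change (melanocytes minus qMcSC) was 2.49 over the 8 genes and 0.03 over all tested genes. With library size as the only scaling these medians were 2.71 and 0.26, and 63.7% instead of 52.6% of all called genes were higher in melanocytes.

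**Figure D1:**
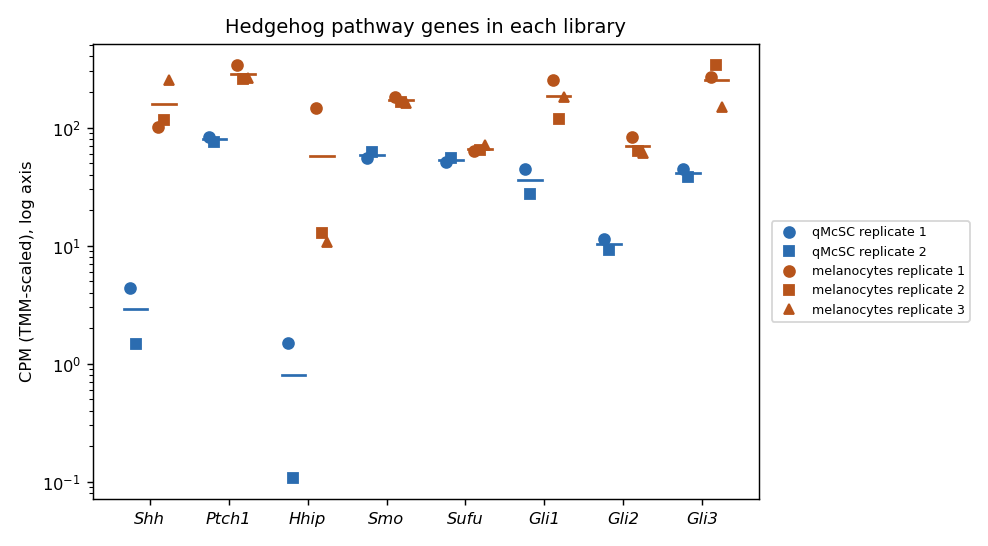
Level of each Hedgehog gene in each library, in TMM-scaled CPM on a log axis. Points are libraries and short lines are group means; the melanocyte points lie above the qMcSC points for all 8 genes, narrowly for Sufu, and melanocyte replicate 1 stands far above the other melanocyte libraries for Hhip.

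Total counts ran from 17512381 to 124530834 per library, and a count of 3 equals 0.0241 to 0.171 CPM at these depths. Levels are given as CPM, the count relative to library size, scaled by TMM (trimmed mean of M-values) factors. The 12 pigment cell markers summed to 20388 and 21798 CPM in qMcSC, and to 3236, 18914 and 20739 CPM in melanocyte replicates 1, 2 and 3, so the first melanocyte library stands apart. Dct, the most abundant of them and the gene behind the reporter, read 10444 and 11528 CPM in qMcSC against 1073, 5777 and 6505 CPM (edgeR adjusted p = 0.155), and Pmel, of the melanosome matrix, 2153 and 2203 against 728, 4980 and 4782 CPM (edgeR adjusted p = 0.472). Of the 12, 2 were called higher in melanocytes and 4 lower, and 7 were called higher when melanocyte replicate 1 was left out. Markers of other skin cells were present in the melanocyte libraries. The 14 dermal papilla and fibroblast markers summed to 78.7 and 35.3 CPM in qMcSC and to 5794, 2082 and 1942 CPM in melanocyte replicates 1 to 3, with 12 of 14 called higher and 0 called lower. For the 14 measured hair matrix and hair shaft markers the sums were 89.8 and 51.5 against 4435, 5830 and 3824 CPM, and all 14 were called higher; Krt34 had no count in either qMcSC library. By mean level over the 5 libraries Col3a1 was the most abundant fibroblast marker, at 9.18 and 2.37 CPM in qMcSC and 2100.5, 709 and 638 CPM in melanocytes, followed by Col1a2. In qMcSC Vcan was the most abundant of this list, and Dcn exceeded Col1a2 in melanocyte replicates 2 and 3. Tchh, a protein of the inner root sheath, led the hair matrix and hair shaft list by the same mean, followed by Krt75. Tchh read 2.23 and 2.86 CPM in qMcSC against 1382, 2227 and 1130 CPM in melanocytes. The list thus reaches beyond matrix and shaft, and its sum does not stand for matrix cells alone. Among 12 epidermal keratinocyte markers 5 were called higher, with Krt5 and Dsp the most abundant over the 5 libraries, and 5 lower. The latter included Krt10 of the upper epidermis, the most abundant of the list in qMcSC and named after its values were seen, at 657 and 1261 CPM against 70.5, 14.3 and 37.1 CPM. The sums of the list were 3490.5 and 4543 against 5855, 5036 and 4126 CPM. The 9 measured endothelial and blood markers, led by Hbb-bs and Lyz2 in the mean over all libraries, summed to 14.4 and 14.3 against 304, 129 and 116 CPM, with 7 called higher and 1 lower. The part of these other cells in the Hedgehog differences was not tested, and in sorted bulk samples fewer cells of a type and less RNA per cell cannot be told apart.

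Shh (chromosome 5, 28456840 to 28467101, GRCm38) encodes the ligand. It had 275 and 163 counts in qMcSC replicates 1 and 2, and 4123, 7912 and 4764 counts in melanocyte replicates 1 to 3. Scaled, these were 4.41 and 1.46 CPM against 102, 116 and 254.7 CPM. All 3 melanocyte libraries were above both qMcSC libraries, and melanocyte replicate 3, the shallowest library, was the highest. The means were 2.93 ± 2.09 CPM (SD, n = 2) and 157 ± 84.5 CPM (SD, n = 3), a log2 fold change of 5.77 ± 0.73 SE (edgeR adjusted p = 0.00121). The log2 fold change was 6.75 without qMcSC replicate 1 and 5.15 without qMcSC replicate 2, both still called. Shh moved from above 30.7% of all tested genes by mean CPM in qMcSC to above 93% in melanocytes. Among the melanocyte libraries, replicate 1 held 0.399 and replicate 2 0.456 of the Shh level of replicate 3. The same ratios were 0.156 and 0.912 for the summed pigment markers, 2.98 and 1.07 for the fibroblast markers and 1.16 and 1.52 for the hair matrix markers. Single genes of a list can depart from its sum. Krt72 of the hair matrix and hair shaft list read 19.6, 108 and 95.1 CPM in melanocyte replicates 1 to 3. Sox10 of the pigment list read 54.6, 123 and 212 CPM, highest in replicate 3 like Shh. Krt72 and Sox10 were picked after their values were seen. In qMcSC, replicate 1 read 3.03 times replicate 2 for Shh. The same ratio was 2.23 for the summed fibroblast markers, 1.75 for the hair matrix markers and 0.935 for the pigment markers. Which cells gave the Shh RNA was not tested. Exons on the opposite strand cover part of Shh: 9530036O11Rik shares 446 and Gm26894 shares 361 of its 2847 exonic bases. Without strand, reads from those bases cannot be assigned.

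The receptor gene Ptch1 (chromosome 13, 63508328 to 63573460) stood at 84.0 and 75.1 CPM in qMcSC and at 337, 258 and 261 CPM in melanocytes. The libraries of each group lay close together, and the gap between groups was far wider than the spread within them. Melanocyte replicate 1 read 1.29 times replicate 3 for Ptch1, 0.156 times for the summed pigment markers and 2.98 times for the summed fibroblast markers. Its log2 fold change was 1.84 ± 0.17 SE (edgeR adjusted p = 0.000399). By mean CPM, which is not scaled for gene length, Ptch1 was already above 80.9% of tested genes in qMcSC. That was the highest standing of the 8 genes there, but per kb of exon Ptch1 ranked 4 of the 8 in qMcSC.

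Hhip (chromosome 8, 79965850 to 80058060) encodes a membrane protein that binds hedgehog ligands and dampens the signal. It read 1.49 and 0.107 CPM in qMcSC, from 93 and 12 counts, and 148, 12.8 and 10.8 CPM in melanocytes. Melanocyte replicate 1 was 11.5 times replicate 2 and 13.7 times replicate 3, and the SD of the group (78.4 CPM, n = 3) was larger than its mean. The log2 fold change was 6.27 ± 1.84 SE (edgeR adjusted p = 0.0288). Without melanocyte replicate 1 it was 3.97 (adjusted p = 0.00966). The call was lost without qMcSC replicate 1 (9.03, adjusted p = 0.0599) and without qMcSC replicate 2 (5.25, adjusted p = 0.129). The same melanocyte library was high in many, but not all, of the dermal papilla and fibroblast markers. It was also high in the summed endothelial and blood markers, at 2.62 times replicate 3. Corin, a protease of the dermal papilla chosen here after its values were seen, read 449 CPM in replicate 1 against 45.9 and 31.1 CPM in replicates 2 and 3. Dcn of the same list, also chosen so, read 555, 533 and 567.5 CPM in melanocyte replicates 1 to 3. The summed fibroblast markers of replicate 1 were 2.98 times those of replicate 3. In qMcSC the high library for Hhip, replicate 1 at 13.9 times replicate 2, was also the higher one for the summed fibroblast markers, at 2.23 times. The part of dermal papilla RNA in the Hhip difference was not tested.

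**Figure D2:**
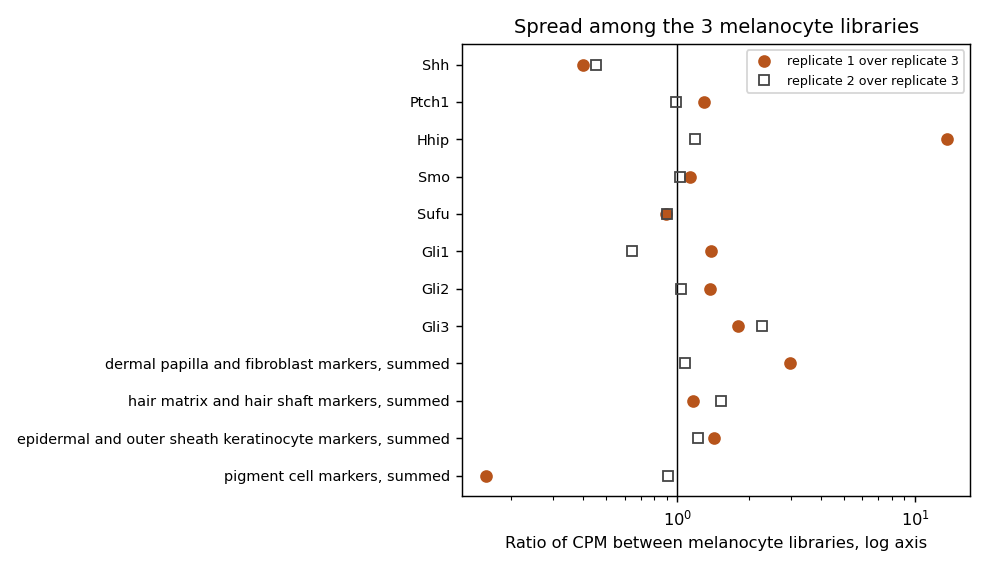
Ratio of CPM between melanocyte libraries for each Hedgehog gene and for 4 summed marker lists, on a log axis; filled circles divide replicate 1 by replicate 3 and open squares replicate 2 by replicate 3. Hhip at 13.7 and the fibroblast markers at 2.98 lie to the right for replicate 1, while the pigment markers at 0.156 and Shh at 0.399 lie to the left. The endothelial and blood markers, not drawn, were at 2.62 for replicate 1.

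Smo (chromosome 6, 29735497 to 29761366), the seven-pass membrane protein that carries the signal inward, had the smallest SE of the 7 genes other than Sufu. It read 55.5 and 62.4 CPM in qMcSC and 183, 166 and 162 CPM in melanocytes, with a log2 fold change of 1.53 ± 0.12 SE (edgeR adjusted p = 0.000227). Sufu (chromosome 19, 46396896 to 46488804), which holds GLI proteins in the cytoplasm, read 50.6 and 55.8 CPM in qMcSC and 63.8, 64.6 and 71.1 CPM in melanocytes. The groups did not overlap, but the gap was small. Its log2 fold change of 0.32 ± 0.11 SE (edgeR adjusted p = 0.0478) lay inside the middle 50% of all tested genes (-0.74 to 0.93), and the call was lost in 4 of the 5 fits that left out a single library. Without qMcSC replicate 1 the adjusted p was 0.241, without qMcSC replicate 2 it was 0.104, and without melanocyte replicates 2 and 3 in turn it was 0.077 and 0.126. In the fit blocked by replicate number it was 0.245. The ratio of melanocyte replicate 1 to replicate 3 was 1.13 for Smo and 0.897 for Sufu, and 0.156 for the summed pigment markers.

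**Figure D3:**
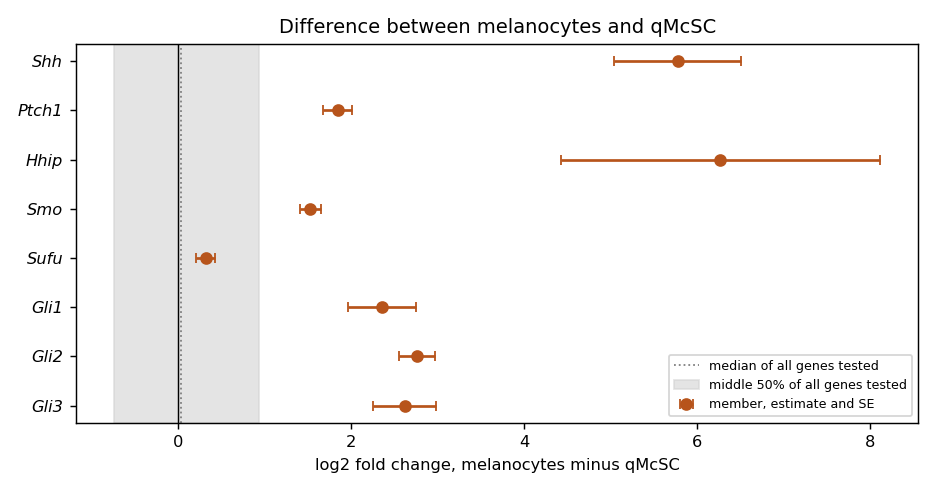
Fitted log2 fold change (melanocytes minus qMcSC) of each Hedgehog gene with its SE; the grey band holds the middle 50% of all genes tested and the dotted line is their median. Sufu at 0.32 lies inside the band, the other genes lie to its right, and Hhip has the widest error at 1.84.

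The GLI transcription factors differ in role: Gli1 is an activator and itself a target of the pathway, Gli2 is the main activator downstream of Smo, and Gli3 works largely as a repressor when no ligand is present. Gli1 (chromosome 10, 127329882 to 127341579) read 44.9 and 27.1 CPM in qMcSC and 253, 118 and 183 CPM in melanocytes. Its libraries spread by a ratio of 1.66 within qMcSC and 2.15 between melanocyte replicates 1 and 2, and the log2 fold change was 2.36 ± 0.39 SE (edgeR adjusted p = 0.00332). Gli2 (chromosome 1, 118834061 to 119054405) read 11.4 and 9.14 CPM against 84.0, 63.5 and 61.4 CPM. It had the smallest adjusted p of the 8 genes (0.000198 in edgeR), at a log2 fold change of 2.76 ± 0.21 SE. Gli3 (chromosome 13, 15463723 to 15730026) read 44.9 and 37.9 CPM against 270, 341 and 151 CPM. Its order among melanocyte libraries was the reverse of that of Gli1 for replicates 2 and 3: Gli3 was 2.26 times as high in replicate 2 as in replicate 3, and Gli1 0.642 times. The log2 fold change of Gli3 was 2.62 ± 0.37 SE (edgeR adjusted p = 0.00173). Melanocyte replicate 1 read 1.38 times replicate 3 for Gli1, 1.37 times for Gli2 and 1.79 times for Gli3, and 0.156 times for the summed pigment markers. Exons of opposite-strand genes share 265 (Gm47200) and 62 (Arhgap9) bases with Gli1, 188 (Gm6556) with Gli3 and 175 (Gm27820) with Hhip. None were annotated over the exons of Ptch1, Smo, Gli2 or Sufu.

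The balance among the 3 GLI genes was set out per length, as shares of their summed CPM per kb of exon. Gli1 made up 58.6% and 50.7% in qMcSC and 55.6%, 34.4% and 59.8% in melanocyte replicates 1 to 3. Gli3 made up 30.6% and 36.9% in qMcSC and 31.0%, 52.0% and 25.6% in melanocytes. These shares overlapped between the groups, and melanocyte replicate 2 was the only library in which Gli3 exceeded Gli1 per exonic length. Gli2 was the smallest share in every library, at 10.8% and 12.4% in qMcSC and 13.4%, 13.5% and 14.6% in melanocytes. Its groups did not overlap, and the difference of shares was not tested.

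**Figure D4:**
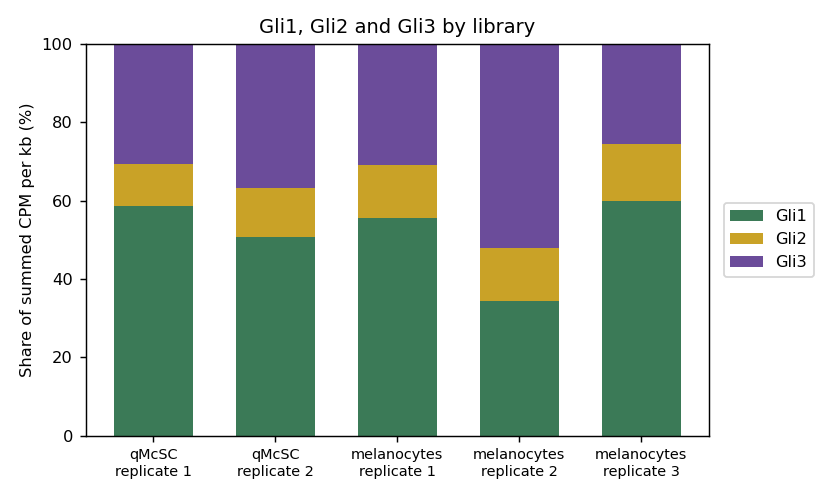
Shares of Gli1, Gli2 and Gli3 in their summed level per kb of exon, in percent, with 1 bar per library. Gli1 holds 34.4% to 59.8%, Gli3 25.6% to 52.0% and Gli2 10.8% to 14.6%; melanocyte replicate 2 shows the largest Gli3 share.

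Ranked by level per exonic length, the order of the genes differed between the groups. In melanocytes Shh came first at 55.3 ± 29.7 CPM per kb (SD, n = 3), then Gli1 at 36.9 ± 13.5, Smo at 30.3 ± 1.99, Gli3 at 26.5 (range 15.7 to 35.6), Ptch1 at 20.1 ± 3.16, Gli2 at 10.1 ± 1.82, Sufu at 8.64 ± 0.524 and Hhip at 6.29 ± 8.64 CPM per kb. The ranges of 6 of the 7 neighbouring pairs overlapped, and a gap was seen only between Ptch1 and Gli2. In qMcSC Smo came first at 10.5 ± 0.874 CPM per kb (SD, n = 2), followed by Gli1 at 7.21 ± 2.51, Sufu at 6.92 ± 0.474, Ptch1 at 5.61 ± 0.442, Gli3 at 4.32 ± 0.520, Gli2 at 1.496 ± 0.233, Shh at 1.03 ± 0.734 and Hhip at 0.0881 ± 0.108 CPM per kb. Overlap was seen there for Gli1 with Sufu and for Gli2 with Shh, and the other 5 neighbouring pairs were apart. Per coding length Sufu led in qMcSC and Shh still led in melanocytes.

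Because the genes moved in 1 direction, their start-site sequences are set side by side for 4 genes, which include the window richest in GC (Ptch1) and the poorest (Sufu, the gene that differed least). RefSeq windows on GRCm38.p6, from 250 bases before to 50 after a start, were at hand for 6 of the 8 genes. The windows of Ptch1 and Gli2 lie inside the spans of these genes, short of their outer 5′ ends at 63573460 and 119054405. The outermost starts of Ptch1 and Gli2 were thus not covered. The 100 bases before the start used for each window are printed 5′ to 3′ on the gene's strand, with each CpG in capitals. Whether these stretches overlap exons was not tested.
Ptch1 (receptor), chr13:63565736-63565835, minus strand: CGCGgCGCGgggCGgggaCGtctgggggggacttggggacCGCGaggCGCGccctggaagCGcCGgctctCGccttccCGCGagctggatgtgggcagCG
Gli2 (activator), chr1:119053620-119053719, minus strand: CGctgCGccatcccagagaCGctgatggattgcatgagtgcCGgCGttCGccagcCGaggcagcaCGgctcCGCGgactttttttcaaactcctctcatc
Smo (transducer), chr6:29735397-29735496, plus strand: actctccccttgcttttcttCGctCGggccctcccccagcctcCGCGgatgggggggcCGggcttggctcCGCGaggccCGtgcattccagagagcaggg
Sufu (inhibitor), chr19:46396796-46396895, plus strand: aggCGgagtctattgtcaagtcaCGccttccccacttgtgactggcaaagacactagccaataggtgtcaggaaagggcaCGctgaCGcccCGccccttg

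In the full windows Ptch1 held 47 CpG and 76.3% GC, Gli3 39 CpG and 71.0%, Hhip 30 CpG and 73.7%, Gli2 28 CpG and 67.3%, Smo 17 CpG and 67.7%, and Sufu 12 CpG and 56.3%. The median over all 32851 windows was 7 CpG and 52.7% GC. The GLI consensus GACCACCCA was searched on both strands. No exact match and none with 1 mismatch lay in the 6 windows, against 0.253% of all windows with an exact match and 6.74% with up to 1 mismatch. That says only that these letters are not within those bases.

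The rest of the pathway was described with 6 lists holding 71 other genes, all of which were tested. Of these, 17 were called higher in melanocytes (23.9%) and 23 lower (32.4%), shares near the 29.1% and 26.2% of all tested genes, and their median log2 fold change was -0.04. With library size as the only scaling the balance turned, to 23 higher and 17 lower. With qMcSC replicate 1 or 2 left out, 15 were called lower.

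Other ligands and genes of ligand release divided: 2 of 7 were called higher and 1 lower (median log2 fold change 0.02). Scube1, which encodes a secreted and membrane-bound SCUBE protein, read 1.35 and 0.795 CPM in qMcSC and 212, 57.6 and 72.9 CPM in melanocytes, with a log2 fold change of 6.77 ± 0.82 SE (edgeR adjusted p = 0.00101). Melanocyte replicate 1, the library highest in fibroblast markers, was also the highest for Scube1, and without it the log2 fold change was 5.97. Scube2, whose protein helps release hedgehog ligands from cells, was also higher in melanocytes (1.59 against 10.2 CPM in the group means). Scube3, given here after its values were seen, was not called (edgeR adjusted p = 0.986). It read 56.7 and 87.9 CPM in qMcSC and 173, 26.5 and 19.8 CPM in melanocyte replicates 1 to 3. Hhat, the acyltransferase that attaches palmitate to the ligands, was lower in melanocytes, at 11.5 against 5.37 CPM, a call lost without qMcSC replicate 1 (adjusted p = 0.0551). The other ligand genes, given here after their values were seen, were low: Ihh had 14 and 38 counts in qMcSC and 11, 8 and 5 in melanocytes, and Dhh 13 and 9 against 40, 48 and 2. Both stayed under 1 CPM in every library and were not called, with Shh at 102 CPM or more in each melanocyte library. Per kb of exon the highest library of Ihh read 0.111 and that of Dhh 0.224 CPM per kb, and the lowest melanocyte library of Shh 35.7 CPM per kb.

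Among 6 other receptor and co-receptor genes, 3 were called higher and 1 lower (median log2 fold change 0.71). The co-receptors divided in direction. Boc read 24.8 and 24.3 CPM against 64.6, 51.5 and 43.0 CPM, a log2 fold change of 1.11 ± 0.19 SE (edgeR adjusted p = 0.00373). Gas1 was lower in melanocytes, at 52.8 and 95.6 CPM in qMcSC against 14.1, 5.15 and 10.5 CPM, a log2 fold change of -2.91 ± 0.45 SE (edgeR adjusted p = 0.00259).

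Genes that act between Smo and the GLI proteins were called higher in 3 and lower in 7 of 19 cases (median log2 fold change -0.14). With library size as the only scaling these counts were 5 and 4, and without either qMcSC library they were 1 and 3. The largest difference was in Arrb1, whose product β-arrestin 1 binds active Smo. It read 92.2 and 108 CPM in qMcSC and 12.3, 5.26 and 3.90 CPM in melanocytes, with a log2 fold change of -3.79 ± 0.47 SE (edgeR adjusted p = 0.00109). Without melanocyte replicate 1 it was -4.41. Arrb2, which encodes β-arrestin 2, was not called (27.5 against 27.8 CPM in the group means, edgeR adjusted p = 0.964). Efcab7, which tethers the Evc complex near the base of the cilium, was also lower in melanocytes (26.6 against 9.93 CPM). Prkaca, a catalytic subunit of protein kinase A, the kinase that primes GLI proteins for processing, was higher (50.1 against 85.4 CPM). Prkacb, for another catalytic subunit, was not called (110 against 98.2 CPM, edgeR adjusted p = 0.382). Arrb2 and Prkacb are given here after their values were seen.

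Mgrn1 encodes a ubiquitin ligase that takes part in lowering Smo at the cell surface, and its mutation is known in mice for an effect on coat color. Mgrn1 read 106 and 107 CPM in qMcSC and 54.3, 53.3 and 51.8 CPM in melanocytes, with little spread within either group. Its log2 fold change was -1.01 ± 0.09 SE (edgeR adjusted p = 0.000368), opposite in sign to that of Smo. A link between the RNA levels of Mgrn1 and Smo was not tested. Mosmo, which also lowers Smo, was at -0.26 and was not called (edgeR adjusted p = 0.0888).

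Genes of the primary cilium, on which the pathway depends in mammals, were called lower in 10 and higher in 2 of 24 cases (median log2 fold change -0.15), with 12 not called. Arl13b, a ciliary GTPase, read 193.5 and 180 CPM in qMcSC and 61.4, 62.6 and 55.8 CPM in melanocytes, a log2 fold change of -1.64 ± 0.10 SE (edgeR adjusted p = 0.000116). Kif3a, a motor subunit of intraflagellar transport, and Bbs4, of the BBSome coat, were lower too (89.4 against 37.8 CPM and 35.8 against 13.1 CPM in the group means). Cep164 and Kifap3 were the 2 genes of this list called higher, at log2 fold changes of 0.70 and 0.39. Kif3b, at -0.10, was not called, and these genes are given here after their values were seen. Over all tested genes 26.2% were called lower and 29.1% higher. With library size as the only scaling 6 cilium genes were called higher instead of 2.

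Of 12 genes reported elsewhere as GLI targets, 7 were called higher in melanocytes and 2 lower (median log2 fold change 2.52). Many of them answer to other pathways as well and take part in cell division. The cyclin gene Ccnd2 read 46.9 and 33.2 CPM in qMcSC and 1013, 945 and 996 CPM in melanocytes. Mycn, a transcription factor gene of growth, read 3.79 and 4.12 against 79.3, 73.8 and 92.5 CPM. The log2 fold changes were 4.62 ± 0.23 SE for Ccnd2 and 4.37 ± 0.16 SE for Mycn (edgeR adjusted p = 6.53e-05 and 4.31e-05). In the opposite direction Bcl2, the survival gene, read 363 and 346 CPM in qMcSC and 33.4, 28.6 and 30.3 CPM in melanocytes, a log2 fold change of -3.53 ± 0.12 SE (edgeR adjusted p = 3.65e-05). The groups were well apart for each of these genes.

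**Figure D5:**
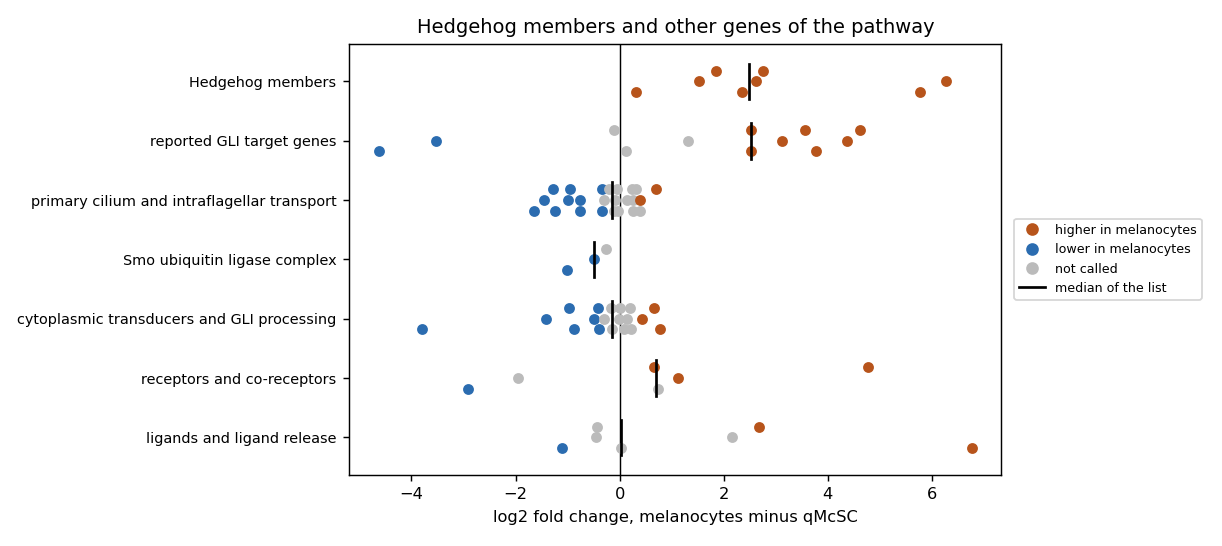
Fitted log2 fold change (melanocytes minus qMcSC) of each tested gene in the 6 pathway lists and of the 8 Hedgehog genes; points are genes, colored by call, and black bars are list medians. The 8 Hedgehog genes (median 2.49) and the reported GLI targets (median 2.52) lie mostly to the right, and the cilium (-0.15) and transducer lists (-0.14) center near 0.

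The genes with profiles most like those of Shh and Gli1 were found by the root mean square difference of centred log2 CPM over the 5 libraries, among 16953 tested genes. For Shh they were H2bc12 (0.28), Tnip3 (0.28), Adamts15 (0.29), Cacng4 (0.42) and Saa3 (0.42). Of these Adamts15, a secreted metalloprotease gene, was the most abundant, at 0.802 and 0.232 CPM in qMcSC and 29.2, 27.6 and 43.4 CPM in melanocytes. For Gli1 they were Plac9b (0.07), Adamtsl3 (0.09), Ldb3 (0.14), Itgb1bp2 (0.15) and Tnfaip8l2 (0.16). Plac9b read 1.84 and 1.22 CPM against 10.8, 5.51 and 8.34 CPM, with the same order of libraries as Gli1. Most of the 10 genes were expressed at low levels, and the likeness over 5 libraries is a description without a test.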

How the data were processed

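Poly-A mRNA libraries without strand information, per the series' design text, comprised 2 of qMcSC and 3 of melanocytes. The authors deposited a table of raw counts, 1 whole number for each gene in each library. The submitters' processing notes name mm10, STAR 2.5.2a and Salmon 0.8.2, and no role for any. What program counted the reads, and on which annotation, is not given in the sources used here. Of 24100 Entrez identifiers, 24045 matched a RefSeq symbol (GRCm38.p6, the same build); 2 of 142 list entries (Krt85, Hba-a1) were not matched. Lengths came from GENCODE vM21.

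After filterByExpr and TMM scaling, the main test was the two-sided quasi-likelihood test of edgeR 4.0.16 (R 4.3.3), with Benjamini-Hochberg adjustment over 16953 genes and a threshold of 0.05. All 5 libraries entered 1 fit without covariates. An SE is the size of the log2 fold change over the root of its F value. The procedure was tested on simulated data. In these the spread of a gene followed its mean level and no library stood apart, so cases like Hhip were not covered. The labels call the libraries biological replicates, and they differed by more than sampling noise. The members and lists were chosen with earlier results of these data known. Named genes were the members, the 3 smallest p-values of each pathway list, the 2 most abundant of each marker list, and the 5 most like Shh and Gli1; exceptions are stated, and some named by this rule are not reported here. Alternatives were other scalings, filters and tests (DESeq2 1.42.0, limma-voom 3.58.1), a replicate block, and leaving out each library. Floors of 3 counts cover counting error only.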

Additional observations from a re-analysis of the deposited data

How the results depend on the processing

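Shh, Ptch1, Smo, Gli1, Gli2 and Gli3 kept their direction and call in all 13 alternative fits, with Shh between 5.15 and 6.75 on the log2 scale. The number of the 8 genes called higher ranged from 6 to 8, and 0 were called lower in any. With limma-voom Hhip had a log2 fold change of 6.41 (adjusted p = 0.0769) and Sufu 0.31 (0.0501), neither called. Sufu was also lost without the filter (0.32, adjusted p = 0.0698). Leaving out each library in turn gave 3.97 to 9.03 for Hhip and 0.25 to 0.39 for Sufu, 2955 to 4857 genes called lower over the whole table, and 15 to 25 genes of the 6 pathway lists called lower. The cause of these changes was not tested, beyond the smaller number of libraries.

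The labels give no meaning to shared replicate numbers, so the numbers were not taken as pairs. Deviations from the group means correlated over genes at 0.04 for number 1 and -0.055 for number 2. With 2 qMcSC libraries the deviations of 1 mirror those of the other, so these values cannot decide whether pairs exist. Under the replicate block 7412 instead of 9385 genes were called and 7 of the 8 genes were higher; Sufu was at 0.27 (adjusted p = 0.245).

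With coding in place of exonic length the ranks in melanocytes became 2 for Smo, 3 for Ptch1, 4 for Gli1, 5 for Gli3, 6 for Sufu, 7 for Hhip and 8 for Gli2. In qMcSC they became 1 for Sufu, 2 for Smo, 3 for Ptch1, 4 for Gli1, 6 for Shh and 7 for Gli2. The mean share of Gli2 became 11.9% in melanocytes and 10.04% in qMcSC, and that of Gli3 in qMcSC 40.8%. A lone qMcSC library is assumed to vary like the melanocytes. No group of 2 or 3 libraries allows an outlier test.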
